A study of Mus musculus with 12 samples.

Results

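The subject is what 4 days of differentiation did to the transcriptome of mouse embryonic stem (ES) cells that lack Smad2 and Smad3. The members were chosen by genotype and day alone: the 4 libraries of the Smad2/3 double knockout, 2 from day 0 and 2 from day 4, out of 12 libraries in the series. Day 0 was the undifferentiated ES state, and day 4 was embryoid bodies (EBs), the aggregates that ES cells form once leukemia inhibitory factor (LIF) is withdrawn. Both of these groups carry the double knockout, so the comparison reads time in culture within that genotype and not the effect of the knockout. The other 8 libraries are wild type and Smad4 knockout cells at the same days, 2 libraries each, and they serve here as references. All 3 genotypes are given as derivatives of E14Tg2a.IV, an established mouse ES cell line. The number of knockout clones, the edited exons and whether the duplicate libraries came from separate cultures are not given in the sources used here, so each p-value is set against library-to-library spread that may be technical. Of 32285 gene identifiers counted, 18693 passed the filter on low counts and were tested.

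Smad2 and Smad3 are the intracellular carriers of Nodal, activin and TGF-beta signals: activated receptors phosphorylate them, they bind Smad4, and the complex enters the nucleus and regulates target genes. BMP ligands use other receptor-regulated Smads, which also bind Smad4. In the early mouse embryo Nodal signalling maintains the epiblast and is required for the primitive streak and for mesoderm and definitive endoderm, while LIF withdrawal lets ES cells leave the naive pluripotent state.

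Total counts in the 4 double knockout libraries were 50952687 and 46132635 at day 0 and 55806858 and 50123451 at day 4, within the series' range of 31566376 to 55806858. Levels are given below in CPM, the count scaled to sequencing depth by the TMM-adjusted library size, always with day 0 replicates 1 and 2 first and day 4 replicates 1 and 2 after. The day 4 libraries resembled each other closely, with 99 tested genes more than 2-fold apart, while 1605 genes were that far apart between the day 0 libraries. Day 0 replicate 2 had 6.74% of its counts on mitochondrially encoded genes, against 2.73% in day 0 replicate 1, 2.00% and 2.18% at day 4 and 1.87% to 3.93% in the other genotypes. Y-linked genes summed to 0.117, 0.103, 3.07 and 0.0367 CPM in the double knockout, against 82.3 to 174 CPM in the other genotypes. Within that list Eif2s3y had 0, 0, 1.39 and 0 CPM and Ddx3y 0.0587, 0, 1.09 and 0 CPM, so the few Y-linked counts lay mainly in day 4 replicate 1. The part of these library differences in the results was not tested.

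Across all genes 1315 were called at an adjusted p below 0.05 (7.03% of those tested), 668 of them higher at day 4 (3.57%) and 647 lower (3.46%). The 2 groups did not overlap for any called gene, nor for 60.2% of all tested genes. Where they do not overlap, leaving out a library cannot turn the sign of the change. A kept sign in such a fit is therefore no test. In the called genes day 0 replicate 2 often lay on the day 4 side of replicate 1: it was the lower of the pair for 67.5% of the genes that fell and the higher for 56.9% of those that rose, while over all tested genes it was higher for 47.6%. The number of calls rested on the individual libraries: it was 283 without day 0 replicate 1, 1208 without day 0 replicate 2, 69 without day 4 replicate 1 and 38 without day 4 replicate 2, and all 1315 genes kept their sign in each of these fits. Of the 106 called genes named below, 33, 75, 22 and 13 were still called in those 4 fits, in the same order, and 12 were called in every one: Zfp469, Mogat2, Mcoln3, Col6a1, Adm, Prtg and Flt1 among those that rose and Stmn2, Pianp, Slc13a5, Xaf1 and Nmnat2 among those that fell.

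**Figure D1:**
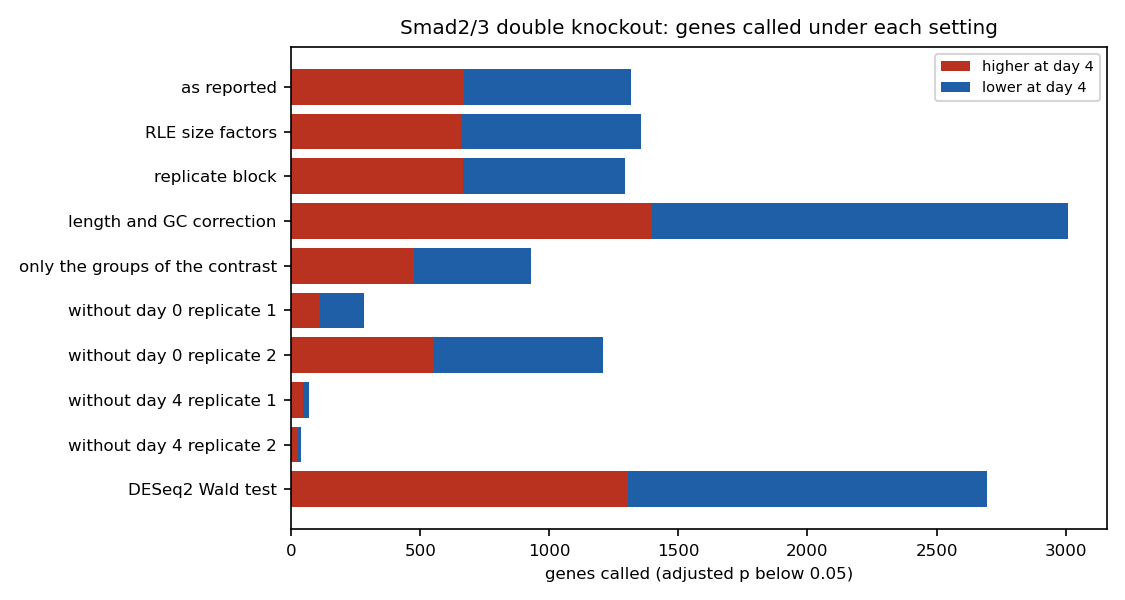
Number of genes called between day 0 and day 4 in the Smad2/3 double knockout (x axis) under each setting (y axis), divided into genes higher (red) and lower (blue) at day 4. The count ranged from 38 without day 4 replicate 2 to 3010 with a length and GC correction, around the 1315 reported.

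Most naive pluripotency markers fell by day 4, and so did Nanog and Pou5f1 of the core network. Of 18 naive markers tested, 11 fell and 0 rose, with a median log2 change of -1.72 against 0.02 over all tested genes. The 18 markers together summed to 4318 and 3168 CPM at day 0 and to 1277 and 972.9 CPM at day 4. Fgf4, the growth factor through which ES cells signal to themselves to differentiate, had 258.0 and 315.4 CPM at day 0 and 62.41 and 55.78 CPM at day 4. Its log2 change was -2.28 ± 0.30 (approximate SE, adjusted p = 0.00485). Its day 4 values lay far below both day 0 values. Fbxo15, a classical ES cell reporter gene, went from 204.6 and 171.1 to 61.84 and 54.35 CPM (-1.69, adjusted p = 0.0105). Dppa5a, an RNA-binding protein of ES cells, had 948.7 and 1279 CPM and then 368.2 and 228.7 CPM (-1.90, adjusted p = 0.0168). Both genes fell with no overlap between the days. Tcl1, an AKT coactivator, fell from 103.7 and 62 to 20.87 and 13.95 CPM (adjusted p = 0.0213), and Tfcp2l1, a transcription factor downstream of LIF, from 384.6 and 453.9 to 169.5 and 141.2 CPM (adjusted p = 0.039).

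Other naive factors were already low in day 0 replicate 2. Klf4, a LIF-responsive transcription factor, had 360.1 and 83.49 CPM at day 0 and 41.53 and 36.68 CPM at day 4 (-2.50 ± 0.63, adjusted p = 0.0388). The nuclear receptor gene Nr0b1 had 81.89 and 19.5 CPM and then 7.547 and 5.297 CPM (-2.98 ± 0.64, adjusted p = 0.0236). For both genes replicate 2 lay nearer to day 4 than to its duplicate, though still above it. Without day 0 replicate 1 the adjusted p was 0.267 for Klf4 and 0.128 for Nr0b1. Tbx3, a T-box factor of the naive state that also answers to BMP, fell from 153 and 62.45 to 31.56 and 23.96 CPM (adjusted p = 0.0304). Klf2, another naive Krüppel-like factor, had 178.3 and 33.22 CPM and then 61.13 and 35.87 CPM, so that the days overlapped (adjusted p = 0.31). Of the 18 markers, 10 stood in day 0 replicate 2 at less than 50% of their level in replicate 1. The count of naive markers that fell was 2 without day 0 replicate 1, 12 without day 0 replicate 2 and 0 without either day 4 library. In a list of 13 LIF and STAT3 targets 2 fell, Klf4 and Tfcp2l1, and 0 rose.

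Among 13 factors shared by naive and later pluripotent cells 3 fell and 0 rose (median -1.03). All 13 were lower in day 0 replicate 2 than in replicate 1, 9 of them at less than 50% of it, and the list summed to 5225 and 2847 CPM at day 0 and 1799 and 1621 CPM at day 4. Nanog, a homeodomain factor of the core network on chromosome 6 (122707489 to 122714633, plus strand, GRCm38), had 729.1 and 644 CPM at day 0 and 163.9 and 137.1 CPM at day 4 (-2.19 ± 0.25, adjusted p = 0.00273). Pou5f1, which encodes Oct4 (chromosome 17, 35506018 to 35510772, plus strand), had 934.9 and 718.7 CPM and then 168.8 and 139.8 CPM (-2.42 ± 0.34, adjusted p = 0.00561). Tdgf1, the Nodal co-receptor Cripto, had 1137 and 521.7 CPM and then 133.7 and 162.8 CPM (-2.48 ± 0.38, adjusted p = 0.00726). For these 3 genes the day 4 libraries agreed closely and lay well below day 0. They were also the 3 members called without day 0 replicate 1, while 7 were called without day 0 replicate 2, 2 without day 4 replicate 1 and 0 without day 4 replicate 2. Sox2, the partner of Oct4, had 381.1 and 178.1 CPM and then 157.2 and 107.6 CPM, which missed the call (adjusted p = 0.0601).

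Formative genes, which epiblast cells switch on between the naive and primed states, had no called rise: of 15 tested, 0 rose and 1 fell, with a median log2 change of -0.13. All 15 were lower in day 0 replicate 2 than in replicate 1, 9 of them at less than 50% of it, and they summed to 1259 and 690.7 CPM at day 0 and 853.6 and 735.1 CPM at day 4. Without day 0 replicate 2, 3 fell, and without any of the other 3 libraries 0 did. The median was 2.01 in wild type and 1.76 in the Smad4 knockout. When the changes were compared gene by gene, 4 of the 15 had a lower change than in wild type, against 4.26% of all tested genes. Of the 15, 0 differed from the Smad4 knockout, where 1 gene of all tested was called. The member that fell was Foxd3, a forkhead repressor, with 23.17 and 5.867 CPM at day 0 and 2.543 and 1.521 CPM at day 4 (-2.83 ± 0.62, adjusted p = 0.0247, and 0.125 without day 0 replicate 1). Dnmt3b, a de novo DNA methyltransferase of the formative state, had 324.1 and 158.9 CPM and then 221 and 219.9 CPM. Its day 4 values lay between the day 0 values, and the log2 change of -0.13 differed from that in wild type (2.60) by -2.73 ± 0.68 (adjusted p = 0.0423). The primed marker Fgf5 had 0.528 and 0 CPM and then 2.774 and 2.804 CPM (adjusted p = 0.086). Otx2, an epiblast homeodomain factor, had 50.24 and 25.54 CPM and then 70.13 and 67.21 CPM (adjusted p = 0.204). Dnmt3l, the catalytically inactive partner of the de novo methyltransferases, had 562.3 and 287.1 CPM and then 271.6 and 210 CPM (adjusted p = 0.119).

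**Figure D2:**
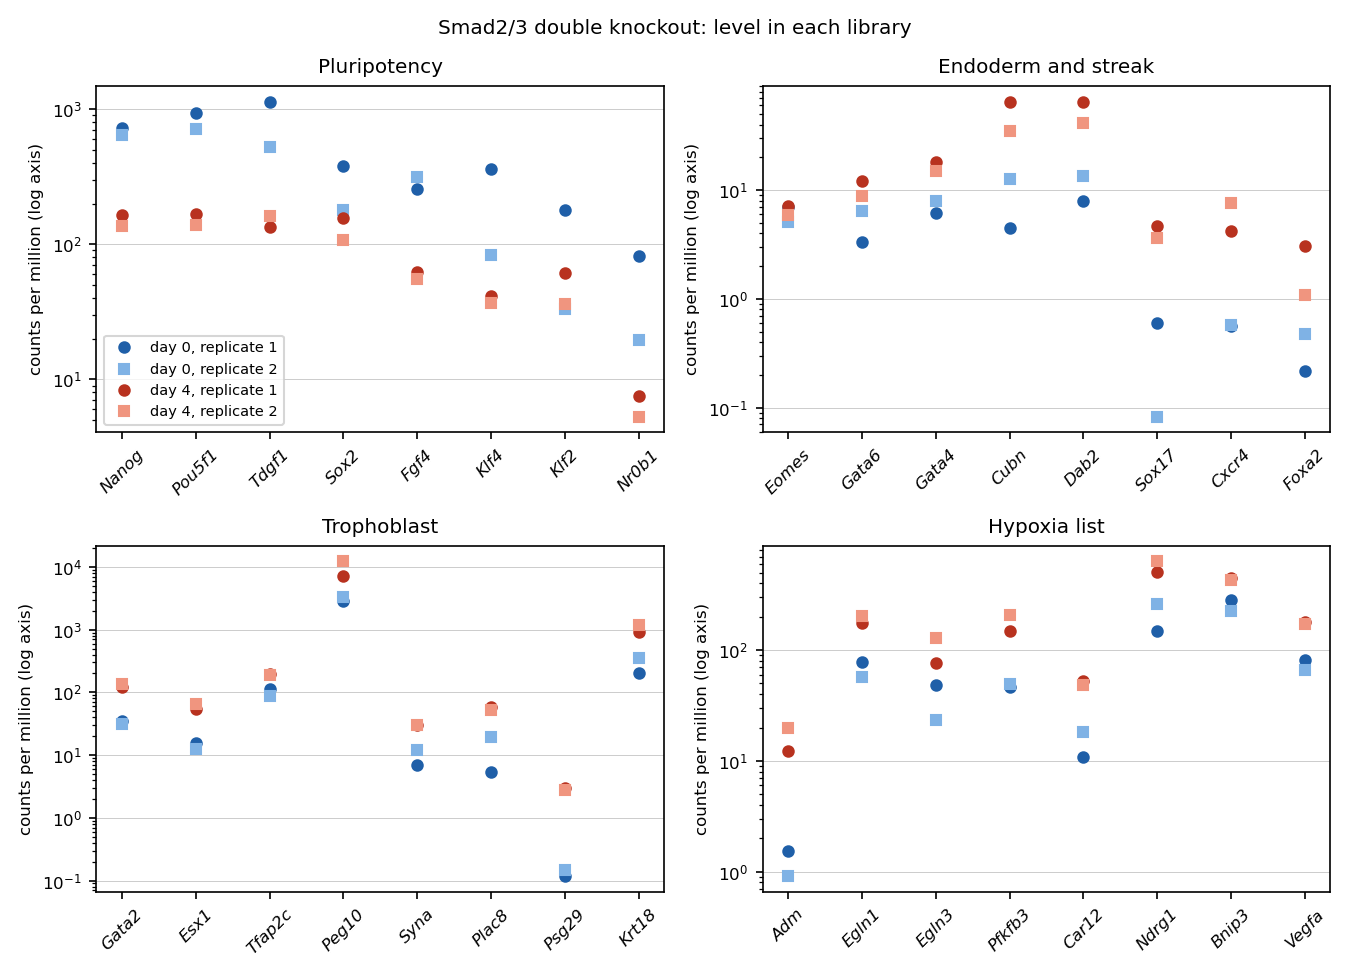
Level of selected genes in the 4 Smad2/3 double knockout libraries, in CPM on a log axis, with day 0 in blue and day 4 in red, circles for replicate 1 and squares for replicate 2, and a count of 0 not drawn. Nanog, Pou5f1 and Fgf4 fell with close replicates, while Klf4, Klf2 and Nr0b1 were already lower in day 0 replicate 2; Eomes had nearly the same level on both days.

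The TGF-beta family changed member by member. Among 15 ligand genes 4 rose and 2 fell. The ligands that fell were Nodal and Gdf3, both epiblast ligands that signal through Smad2 and Smad3. Nodal had 57.63 and 26.96 CPM at day 0 and 12.9 and 9.44 CPM at day 4 (-1.92 ± 0.44, adjusted p = 0.0283), and Gdf3 had 78.79 and 49.6 CPM and then 19.9 and 15.34 CPM (-1.86 ± 0.30, adjusted p = 0.00852). In neither did the days overlap. Gdf11, an activin-like ligand of axial patterning, rose from 1.858 and 1.178 to 7.58 and 7.167 CPM (2.28, adjusted p = 0.00795). Bmp8b, a BMP of the extraembryonic ectoderm, rose from 2.562 and 2.851 to 12.58 and 14.97 CPM (2.35 ± 0.38, adjusted p = 0.008), and its change exceeded that in wild type (-0.49) by 2.83 (adjusted p = 0.0202). Bmp2 rose from 0.3324 and 0.5165 to 2.163 and 2.878 CPM (adjusted p = 0.039), by 3.87 less on the log2 scale than in wild type (adjusted p = 0.0463). Bmp5 had 0 counts in both day 0 libraries and 0.4954 and 1.045 CPM at day 4, at least 25.1-fold higher taking 3 counts in the whole group as the floor (adjusted p = 0.0478). Without day 0 replicate 1, 2 ligands were still called higher and 0 lower, and without either day 4 library none was.

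Among 13 receptor and co-receptor genes 2 rose and 1, Tdgf1, fell. Tgfbr3, the ligand-presenting co-receptor betaglycan, rose from 6.375 and 9.772 to 27.02 and 24.07 CPM (1.66, adjusted p = 0.0268). Its rise was smaller than that in wild type by 3.61 on the log2 scale (adjusted p = 0.011). Tgfbr2, the type II receptor for TGF-beta itself, rose from 2.171 and 2.045 to 6.226 and 5.884 CPM (1.52, adjusted p = 0.0449). Without day 0 replicate 1, the adjusted p was 0.127 for each of the pair.

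None of the 14 Smad and Smad cofactor genes was called. Smad2 had 37.82 and 47.74 CPM at day 0 and 48.27 and 46.72 CPM at day 4 (adjusted p = 0.755). Smad3 had 19.77 and 13.08 CPM and then 31.31 and 28.78 CPM (adjusted p = 0.0645), and Smad4 had 138.6 and 118.5 CPM and then 174.2 and 159 CPM (adjusted p = 0.266). Counts over whole genes do not test the knockouts, because a transcript with a deletion or frameshift can still be counted.

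Of 12 extracellular inhibitors 3 rose and 1 fell. The activin antagonist Fst went from 3.696 and 1.508 to 12.9 and 13.77 CPM (2.35 ± 0.59, adjusted p = 0.0388). Its relative Fstl3 went from 5.71 and 9.359 to 26.29 and 20.62 CPM (1.64, adjusted p = 0.039). Neither showed any overlap between days. Fstl1, a secreted BMP-binding glycoprotein, fell from 65.86 and 54.73 to 32.75 and 28.8 CPM (-0.97, adjusted p = 0.0252). None of the 12 was called without day 0 replicate 1 or without either day 4 library.

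In a list of 14 Nodal and activin target genes 2 rose, 1 fell and the median log2 change was -0.01. Fst, given above among the inhibitors, was among those that rose. Nodal, which amplifies its own expression, was the gene that fell. Lefty1, the feedback antagonist of Nodal, was scarcely detected, with 0.0587 and 0.0620 CPM and then 0.892 and 0.257 CPM (adjusted p = 0.0884). In wild type the same gene had 226.1 and 224.8 CPM at day 0 and 41.35 and 111.2 CPM at day 4. Lefty2 had 0.489 and 0.124 CPM at day 0 and 2.394 and 0.147 CPM at day 4 (adjusted p = 0.248). Skil, a Smad corepressor induced by the pathway, had 101.3 and 98.69 CPM and then 112.8 and 100.7 CPM, a change that was smaller than in wild type by 2.20 on the log2 scale (adjusted p = 0.0205).

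Of 15 BMP target genes 2 rose and 1, Tbx3, fell. Gata2, a GATA factor of trophoblast and of blood progenitors, rose from 34.67 and 31.32 to 119.7 and 137.5 CPM (1.96 ± 0.40, adjusted p = 0.0192). The homeobox gene Dlx5 had 0 and 0.0413 CPM and then 0.594 and 0.770 CPM (ratio 33.7, adjusted p = 0.0497, and 0.0652 with DESeq2). The Id genes, direct BMP targets that encode inhibitors of helix-loop-helix factors, missed the call: Id1 had 80.02 and 49.15 CPM and then 40.14 and 39.28 CPM (adjusted p = 0.322), and Id2 had 87 and 126.6 CPM and then 66.53 and 69.36 CPM (adjusted p = 0.156).

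No primitive streak gene was called higher. Of 15 tested, 0 rose and 1 fell, with a median log2 change of 0.34, against 3.19 in wild type and 0.55 in the Smad4 knockout. Eomes, the T-box factor that specifies streak derivatives (chromosome 9, 118478212 to 118486132, plus strand), had 6.961 and 5.103 CPM at day 0 and 7.15 and 5.92 CPM at day 4 (0.12 ± 0.25, adjusted p = 0.816). The days overlapped, while in wild type Eomes went from 3.955 and 4.238 to 249.0 and 241.2 CPM, and the 2 changes differed by -5.79 ± 0.37 (adjusted p = 9.02e-05). T, which encodes Brachyury, had 0.176 and 0.1033 CPM and then 0.2807 and 0.3666 CPM in the double knockout, where wild type reached 102.5 and 124.1 CPM at day 4 (difference -7.27, adjusted p = 0.0311). The mesendoderm homeobox gene Mixl1 had 0.137 and 0.165 CPM and then 0.116 and 0 CPM (difference from wild type -8.19, adjusted p = 0.011). Altogether 8 of the 15 streak genes differed from wild type in their change, all in the lower direction, against 4.26% of tested genes. The member that fell, Fgf17, an FGF8-family ligand, had 12.98 and 1.405 CPM and then 0.347 and 0.275 CPM (-4.52 ± 0.87, adjusted p = 0.0158, and 0.0601 without day 0 replicate 1).

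Of 19 genes of mesoderm, blood and endothelium 3 rose and 1 fell. Pdgfra, a receptor found on mesoderm and on primitive endoderm, rose from 4.732 and 8.181 to 27.38 and 21.1 CPM (1.91, adjusted p = 0.0159). That rise was smaller than in wild type by 4.37 on the log2 scale (adjusted p = 0.00699). Cdh5, the endothelial cadherin, rose from 8.369 and 8.14 to 47.21 and 37.9 CPM (2.37, adjusted p = 0.0459), and the homeobox gene Meis1 from 1.564 and 1.157 to 3.897 and 3.959 CPM (1.53, adjusted p = 0.0371). Tek, the angiopoietin receptor of endothelium, moved in the other direction, from 26.99 and 11.47 to 5.895 and 3.519 CPM (-2.03, adjusted p = 0.0245). None of these 19 genes was called without day 0 replicate 1 or without either day 4 library. Hand1, a factor of lateral mesoderm and of trophoblast giant cells, had 10.44 and 5.082 CPM and then 66.27 and 68.35 CPM, an increase in both libraries that just missed the threshold (3.12 ± 0.85, adjusted p = 0.0502).

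Some endoderm genes rose from low levels. Of 11 definitive endoderm markers 4 rose and 0 fell (median 1.93, and 4.72 in wild type). Of the 11, 5 changed by less than in wild type, against 4.26% of all tested genes. Cxcr4, a chemokine receptor of streak and endoderm cells, had 0.567 and 0.579 CPM at day 0 and 4.228 and 7.588 CPM at day 4 (3.36 ± 0.44, adjusted p = 0.00485). Sox17, a factor of definitive and extraembryonic endoderm, had 0.606 and 0.0826 CPM and then 4.706 and 3.611 CPM (3.58, adjusted p = 0.0232), and its relative Sox7 had 1.271 and 1.302 CPM and then 4.971 and 6.232 CPM (2.12, adjusted p = 0.018). Foxa2, a forkhead factor of endoderm and node (chromosome 2, 148042877 to 148046969, minus strand), rose from 0.215 and 0.475 to 3.039 and 1.081 CPM (2.58 ± 0.55, adjusted p = 0.025). In wild type Foxa2 had 0 counts at day 0 and 30.53 and 45.16 CPM at day 4. Gata6, a GATA factor of endoderm, had 3.363 and 6.487 CPM and then 12.25 and 8.798 CPM (adjusted p = 0.177), a change smaller than in wild type by 4.51 (adjusted p = 0.0145). Without each library in turn, 2, 4, 1 and 1 definitive endoderm markers were called higher.

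The extraembryonic endoderm list, markers of primitive, visceral and parietal endoderm, had 12 of 22 members higher and 0 lower at day 4, with a median log2 change of 1.86. Its median was 4.88 in wild type and 1.55 in the Smad4 knockout. Summed over the 22 genes, the level was 1639 and 1501 CPM at day 0 and 2736 and 2331 CPM at day 4. The same sum in wild type was 667.2 and 746.9 CPM at day 0 and 2991 and 3413 CPM at day 4. At day 0 this sum was thus already higher in the double knockout than in wild type. The Smad4 knockout had 1360 and 934 CPM at day 0 and 928.2 and 1324 CPM at day 4. The list includes laminin and collagen IV genes, and a sum mostly follows its most abundant members, so it does not show which of them were high. In the double knockout Cubn, an endocytic receptor of visceral endoderm, rose from 4.517 and 12.71 to 64.95 and 35.01 CPM (2.54, adjusted p = 0.0197). Dab2, the adaptor protein of that endocytic route, rose from 7.92 and 13.61 to 64.06 and 41.55 CPM (2.29, adjusted p = 0.0204). Gata4, a GATA factor of endoderm, rose from 6.101 and 8.016 to 18.02 and 15.12 CPM (1.23, adjusted p = 0.0266). In each of these the days were separate, and day 4 replicate 1 was the higher of its pair.

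Secreted products of visceral endoderm appeared at low level. Ttr, the thyroid hormone carrier transthyretin, had 0 counts in both day 0 libraries and 6.589 and 4.234 CPM at day 4, at least 182-fold higher against a floor of 3 counts (adjusted p = 0.0231). The adjusted p for Ttr was 0.0745 with DESeq2 and 0.0554 to 0.0954 without each library in turn. Afp, alpha-fetoprotein, had 0 counts at day 0 and 1.486 and 4.051 CPM at day 4, at least 89.6-fold higher (adjusted p = 0.0463). Apob, a lipoprotein component, rose from 0.723 and 0.207 to 5.07 and 3.483 CPM (adjusted p = 0.0264), and the hedgehog ligand gene Ihh from 0.137 and 0.124 to 2.064 and 0.861 CPM (adjusted p = 0.0251). Of the 22 genes, 10 changed by less than in wild type and 0 by more, against 4.26% and 1.83% of all tested genes. Among the 10 were Cubn (difference -6.47, adjusted p = 0.00664), Apob (-5.62, adjusted p = 0.0199), Dab2 (-4.36, adjusted p = 0.0127) and Gata4 (-3.79, adjusted p = 0.00508). Without day 0 replicate 1, 1 member was called higher, without day 0 replicate 2 there were 6, and without either day 4 library 0. In bulk RNA a change in the number of cells of a type and a change in RNA per cell cannot be told apart.

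A few trophoblast genes rose, while the medians of the same lists were at or below 0 in wild type. Wild type members moved both ways: 4 of 16 factors rose and 3 fell, and 5 of 23 products rose and 2 fell. In wild type 43.6% of all tested genes were called between the days. Of 16 trophectoderm factors 3 rose and 0 fell (median 0.99, and -0.38 in wild type). Without any single double knockout library 0 of them was called, and with the length and GC correction 6 were. The 3 that rose in the fit reported were Gata2, given above, Esx1 and Tfap2c. Esx1, an X-linked placental homeobox gene, rose from 15.35 and 12.5 to 53.36 and 65.18 CPM (2.09, adjusted p = 0.0248). Tfap2c, an AP-2 factor of trophoblast and germ cells, rose from 112.3 and 86.87 to 194.6 and 190.7 CPM (0.95, adjusted p = 0.0385). The change of Gata2 exceeded that in wild type by 2.93 on the log2 scale (adjusted p = 0.025) and that of Tfap2c by 1.96 (adjusted p = 0.0166). Wild type had 2.445 and 1.859 CPM of Gata2 at day 0 and 0.682 and 1.514 CPM at day 4, so the double knockout was already the higher genotype at day 0. Other lineage-defining factors missed the call. Gata3 had 10.83 and 17.66 CPM and then 38.13 and 29.78 CPM (adjusted p = 0.0961), Cdx2 had 1.251 and 0.434 CPM and then 2.048 and 1.778 CPM (adjusted p = 0.359), and Elf5, a factor of trophoblast stem cells, had 0.704 and 1.136 CPM and then 2.774 and 2.676 CPM (adjusted p = 0.225).

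Of 23 genes for trophoblast products 8 rose and 0 fell, with a median log2 change of 1.69, against 0.00 in wild type and 0.36 in the Smad4 knockout. The summed level was 6390 and 7262 CPM at day 0 and 14520 and 20090 CPM at day 4. In wild type the sum also rose, from 2036 and 2042 CPM at day 0 to 3411 and 3398 CPM at day 4. The largest single contributor in each double knockout library was Peg10, a retrotransposon-derived imprinted gene needed for the placenta. Peg10 had 2811 and 3266 CPM and then 7284 and 12300 CPM (1.69 ± 0.32, adjusted p = 0.0155). Syna, the fusogen of the labyrinth syncytium, rose from 7.02 and 12 to 30.15 and 30.17 CPM (1.66, adjusted p = 0.0213), which exceeded wild type by 2.40 (adjusted p = 0.0337). Plac8 rose from 5.397 and 19.73 to 59.14 and 52.37 CPM (2.15, adjusted p = 0.0303), which exceeded wild type by 2.98 (adjusted p = 0.0364). Slc2a3, a placental glucose transporter that ES cells also express, rose from 2240 and 1817 to 3451 and 3554 CPM (0.79, adjusted p = 0.0292).

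Products of the giant-cell and spongiotrophoblast lineages were detected at low level in the double knockout. Psg29, a pregnancy-specific glycoprotein, had 0.117 and 0.145 CPM at day 0 and 2.956 and 2.786 CPM at day 4 (4.43 ± 0.68, adjusted p = 0.0159). The placental cathepsin Ctsj had 0.293 and 1.281 CPM and then 6.556 and 11.16 CPM (3.49, adjusted p = 0.0374). The call for Ctsj did not hold with DESeq2 (adjusted p = 0.727), with the double knockout libraries fitted alone (0.0561) or without day 0 replicate 1 (0.0901), day 4 replicate 1 (0.109) or day 4 replicate 2 (0.235). Prl3d1, placental lactogen I of giant cells, had 0 and 0.372 CPM and then 2.89 and 5.279 CPM, which missed the call (adjusted p = 0.0716). Psg, placental cathepsin and prolactin genes are families of near-identical copies, so the split of reads among their members is uncertain. The simple-epithelial keratins, which trophoblast and endoderm share, had higher day 4 values that missed the call: Krt8 had 275.1 and 526.3 CPM and then 930.1 and 1134 CPM (adjusted p = 0.299), and Krt18 had 204.3 and 356.7 CPM and then 927.1 and 1202 CPM (adjusted p = 0.107). Without day 0 replicate 1, 0 trophoblast products were called, without day 0 replicate 2 there were 8, without day 4 replicate 1 there was 1 and without day 4 replicate 2 there were 0. For 8 of the 23 genes day 0 replicate 2 had over 2 times the level of replicate 1.

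**Figure D3:**
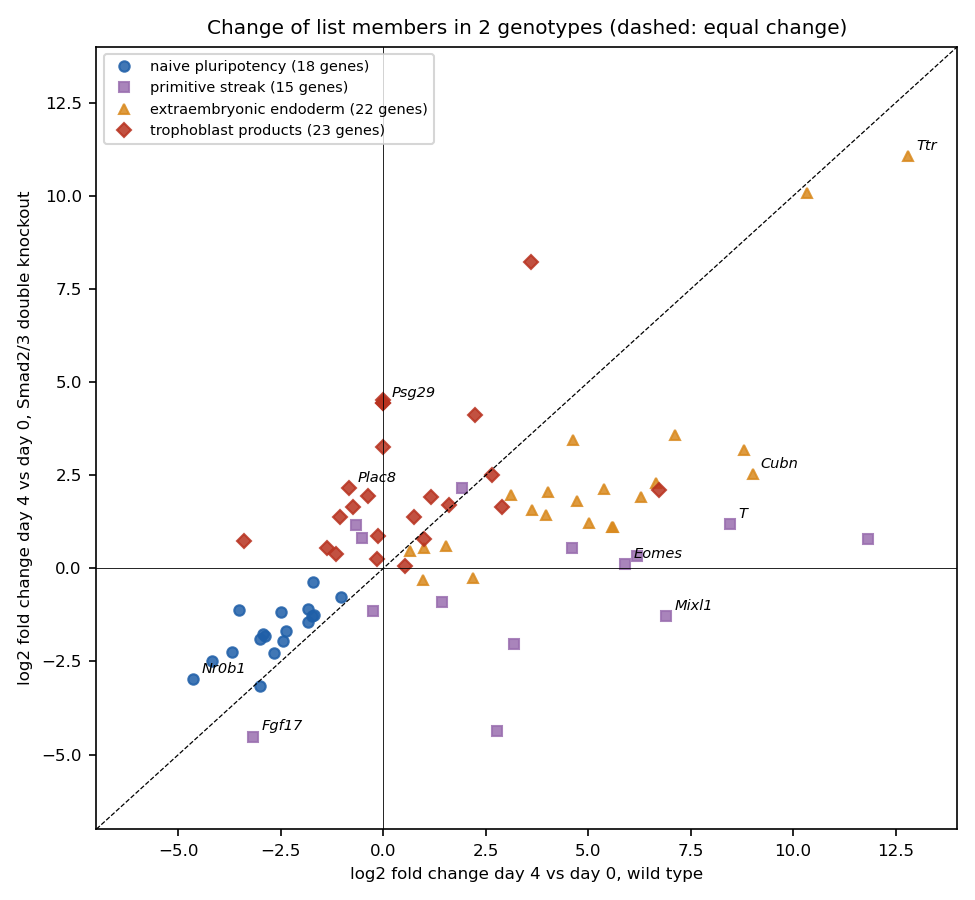
Log2 fold change from day 0 to day 4 in wild type (x axis) and in the Smad2/3 double knockout (y axis) for tested members of 4 gene lists, with a dashed line of equal change; values of genes with 0 counts in a group depend on the prior count of the fit. Extraembryonic endoderm and streak genes lay mostly below the line (medians 1.86 and 0.34 against 4.88 and 3.19 in wild type), and trophoblast products mostly above it (1.69 against 0.00).

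The epithelial list had 3 called rises and the neural list 1, and neither had a called fall. Of 12 surface ectoderm and epithelial genes 3 rose and 0 fell, where 3.57% of all tested genes were called higher and 3.46% lower. Esrp1, an epithelial splicing regulator, rose from 42.82 and 55.29 to 151.3 and 164.4 CPM (1.69 ± 0.23, adjusted p = 0.00561). The zinc-finger factor Ovol1 rose from 1.408 and 1.446 to 4.228 and 4.454 CPM (1.60, adjusted p = 0.0426), and the tight-junction gene Cldn6 from 45.05 and 66.81 to 175.5 and 145.6 CPM (1.52, adjusted p = 0.0443). E-cadherin, encoded by Cdh1, had 382.3 and 385.9 CPM and then 526 and 576.3 CPM (adjusted p = 0.139). Of 16 neural genes 1 rose, at a very low level: Pax3, a neural crest and dorsal neural tube factor, had 0 counts at day 0 and 0.429 and 0.183 CPM at day 4, at least 10.4-fold higher (adjusted p = 0.034). As a whole the neural list did not rise. Its median log2 change was -0.09, with 8 positive and 8 negative estimates, against a median of 0.97 in wild type. The list summed to 105.4 and 61.75 CPM at day 0 and 79.27 and 70.26 CPM at day 4.

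Among 23 imprinted genes 7 rose and 1 fell (median 0.80, and 0.93 in wild type). Igf2, the paternally expressed growth factor on chromosome 7 (142650766 to 142666816, minus strand), had 214.3 and 212.3 CPM at day 0 and 1168 and 1365 CPM at day 4 (2.57 ± 0.43, adjusted p = 0.0101). Its neighbour H19, a maternally expressed non-coding RNA (142575529 to 142578143, minus strand), had 2073 and 2333 CPM and then 7155 and 8828 CPM (1.86, adjusted p = 0.0191). Both rose with close replicates, and Zim1, a zinc-finger gene of the Peg3 domain, rose from 2.425 and 4.07 to 12.47 and 16.42 CPM (2.15, adjusted p = 0.00824). Grb10, an adaptor that restrains insulin receptor signalling, fell from 58.16 and 37.23 to 15.36 and 17.39 CPM (-1.54, adjusted p = 0.0187). Its change differed from that in wild type (0.67) by -2.21 (adjusted p = 0.0238). Meg3, the maternally expressed RNA of the Dlk1 domain, had 215 and 182.2 CPM and then 242.3 and 231.8 CPM (adjusted p = 0.616). The strand setting of the counts is not given in the sources used here, so reads from overlapping antisense transcripts are not separated. Without each library in turn, 0, 8, 1 and 0 imprinted genes were called higher.

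Many genes of the hypoxia response rose. They are known targets of the hypoxia-inducible factors (HIF), which bind a short core element, ACGTG, near or in their promoters. Of 17 tested 9 rose and 0 fell, with a median log2 change of 1.26, and with 0.91 in wild type and 0.94 in the Smad4 knockout. Their summed level was 2409 and 2144 CPM at day 0 and 4385 and 4870 CPM at day 4. Promoters are printed for 4 of the 9, those with a single listed start and the HIF core within it, because the list is defined by a factor with a known element. They run from 250 bases before to 50 bases after the start (RefSeq, build GRCm38.p6), 5′ to 3′ on the strand of the gene, with each ACGTG or its reverse complement CACGT in capitals.
Egln1, chr8:124949205-124949504, minus strand: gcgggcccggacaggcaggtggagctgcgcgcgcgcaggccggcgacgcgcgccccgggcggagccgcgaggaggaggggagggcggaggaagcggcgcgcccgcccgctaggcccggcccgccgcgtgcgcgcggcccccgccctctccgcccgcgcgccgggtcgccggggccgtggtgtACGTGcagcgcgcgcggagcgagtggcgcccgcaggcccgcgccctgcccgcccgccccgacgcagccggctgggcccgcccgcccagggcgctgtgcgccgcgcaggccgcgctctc
Bnip3, chr7:138909457-138909756, minus strand: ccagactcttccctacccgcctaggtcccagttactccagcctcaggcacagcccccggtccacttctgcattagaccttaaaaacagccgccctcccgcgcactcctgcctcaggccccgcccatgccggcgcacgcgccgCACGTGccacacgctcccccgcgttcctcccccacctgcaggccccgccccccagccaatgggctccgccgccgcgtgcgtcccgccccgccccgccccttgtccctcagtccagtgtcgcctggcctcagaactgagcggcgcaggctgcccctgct
Egln3, chr12:54203825-54204124, minus strand: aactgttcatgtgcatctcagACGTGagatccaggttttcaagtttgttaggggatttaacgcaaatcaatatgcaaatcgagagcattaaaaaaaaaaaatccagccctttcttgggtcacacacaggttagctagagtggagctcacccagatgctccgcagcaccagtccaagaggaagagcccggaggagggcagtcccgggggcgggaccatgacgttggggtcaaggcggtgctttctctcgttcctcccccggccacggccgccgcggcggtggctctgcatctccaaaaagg
P4ha2, chr11:54100674-54100973, plus strand: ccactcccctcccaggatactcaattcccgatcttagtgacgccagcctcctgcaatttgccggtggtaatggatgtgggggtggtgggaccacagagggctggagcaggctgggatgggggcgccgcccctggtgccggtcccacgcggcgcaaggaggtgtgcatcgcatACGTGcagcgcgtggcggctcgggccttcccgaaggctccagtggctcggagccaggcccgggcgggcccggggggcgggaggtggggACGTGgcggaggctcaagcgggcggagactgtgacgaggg

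In Bnip3 the capitals are the palindrome in which both strands read the core, so its 2 matches overlap, while P4ha2 has 2 separate matches. The core was found on either strand in 11 of 16 promoters of the hypoxia list (68.8%) and in 6 of the 8 called members with a promoter entry (75%). Over all 13585 tested genes with a promoter entry the share was 27.1%, and it was 27.3% for genes called higher and 25.8% for genes called lower. A gene counted once any of its listed starts held the core. The listed promoters of Adm and Car12 had no match in this window.

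The 4 genes behind the printed promoters encode HIF feedback enzymes and downstream effectors. Egln1, the principal prolyl hydroxylase that marks HIF for degradation, had 78.36 and 56.92 CPM at day 0 and 176.5 and 203.5 CPM at day 4 (1.49 ± 0.22, adjusted p = 0.00656). Its paralog Egln3 had 48.03 and 23.22 CPM and then 75.98 and 129.9 CPM (1.53, adjusted p = 0.0243). Bnip3, a mitophagy receptor, had 281.1 and 224.9 CPM and then 447.8 and 430.9 CPM (0.80, adjusted p = 0.0435, and 0.0524 with RLE size factors), and P4ha2, a collagen prolyl hydroxylase subunit, had 47.03 and 81.69 CPM and then 155.3 and 165.5 CPM (1.32, adjusted p = 0.0412). In all 4 genes both day 4 libraries lay above both day 0 libraries. Adm, the vasoactive peptide adrenomedullin, had 1.545 and 0.909 CPM and then 12.34 and 19.63 CPM (3.70 ± 0.48, adjusted p = 0.0042), and it stayed called without any single double knockout library. Pfkfb3, a glycolytic regulator, rose from 46.31 and 49.25 to 149.5 and 205.8 CPM (1.89, adjusted p = 0.008). Car12, a carbonic anhydrase, rose from 10.85 and 18.04 to 53.04 and 48.57 CPM (1.81, adjusted p = 0.0127), and Ndrg1 from 148.1 and 261 to 507.5 and 634.8 CPM (1.48, adjusted p = 0.0167).

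Vegfa, the angiogenic growth factor, was the called hypoxia gene whose change also differed from that in wild type. It rose from 80.68 and 66.63 to 180.4 and 172.3 CPM (1.26, adjusted p = 0.02), and its change exceeded that in wild type (-0.21) by 1.47 (adjusted p = 0.042). Slc2a1, the glucose transporter GLUT1, had 1087 and 821 CPM and then 1812 and 1959 CPM (adjusted p = 0.0755). Without each library in turn, 3, 7, 3 and 1 hypoxia genes were called higher. Of 18 glycolytic enzyme genes 1 rose, with a median log2 change of 0.05: Eno2, the neuronal enolase, went from 6.218 and 9.276 to 22.34 and 19.76 CPM (1.44, adjusted p = 0.0478).

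**Figure D4:**
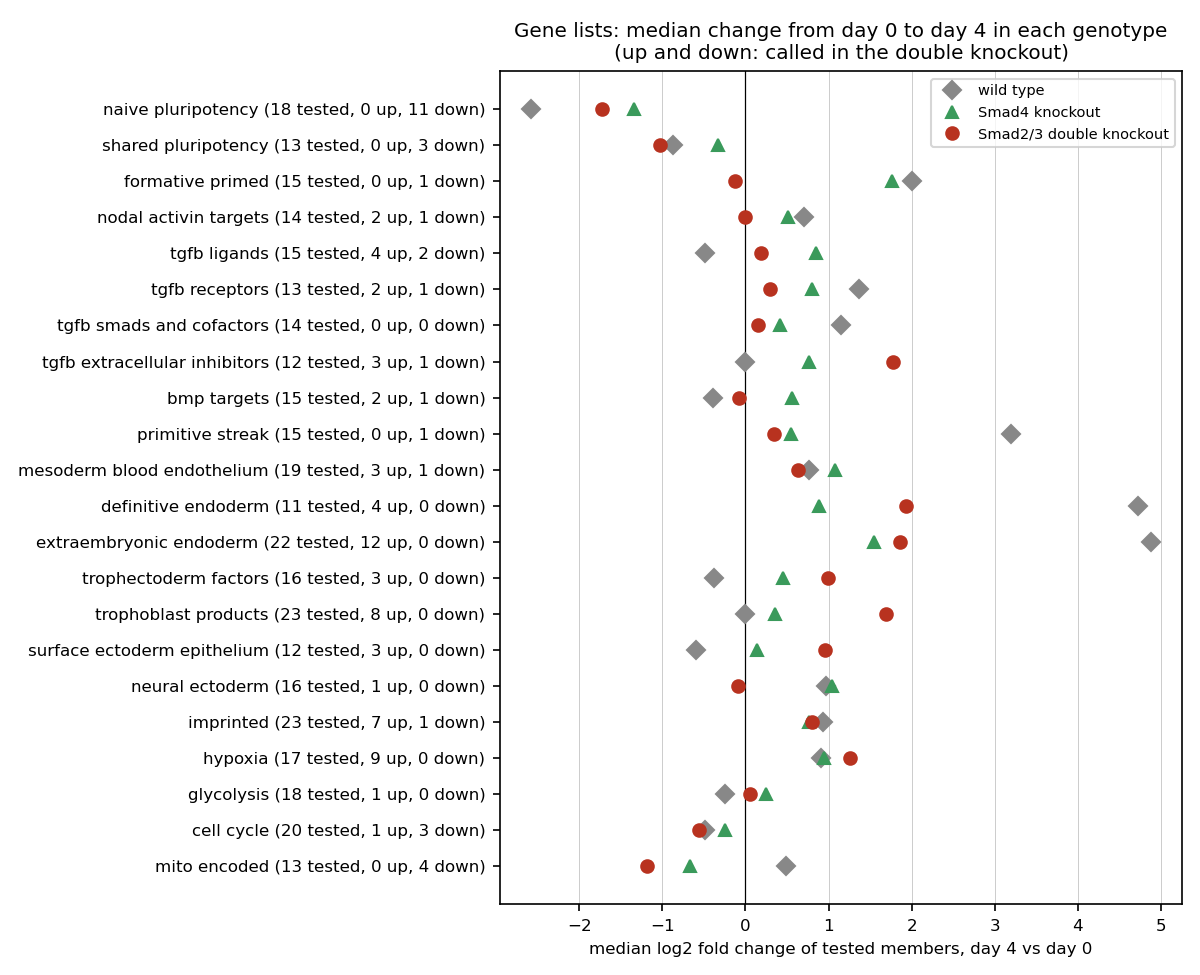
Median log2 fold change from day 0 to day 4 (x axis) of the tested members of 22 gene lists (y axis) in the Smad2/3 double knockout (red circles), wild type (grey diamonds) and Smad4 knockout (green triangles), with the number called in the double knockout beside each name. The naive list was negative in all 3 genotypes (-1.72, -2.58 and -1.34) and the hypoxia list positive in all 3. In the same order of genotypes the formative median was -0.13, 2.01 and 1.76, and the streak median 0.34, 3.19 and 0.55. No member of these lists was called for a change that differed from that in the Smad4 knockout.

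Growth, stress and death genes were called in some lists and not in others in the fit reported. Over all tested genes 3.46% were called lower and 3.57% higher. Of 20 cell cycle genes 3 fell and 1 rose, with a median log2 change of -0.56 and 17 negative estimates. The number that fell was 10 with the length and GC correction, 8 with DESeq2, 7 without day 0 replicate 2 and 0 without any of the other 3 libraries. Mcm6 and Mcm5, subunits of the replicative helicase, went from 505.2 and 390 to 234.3 and 236.1 CPM (-0.93, adjusted p = 0.0189) and from 483.9 and 310.9 to 200.1 and 205.2 CPM (-0.97, adjusted p = 0.0395). Rrm2, the ribonucleotide reductase subunit, fell from 352.2 and 355 to 178.7 and 189.2 CPM (-0.94, adjusted p = 0.02), while cyclin D2, encoded by Ccnd2, rose from 4.204 and 4.483 to 17.9 and 17.08 CPM (2.01, adjusted p = 0.0212). The mitotic gene Top2a had 1171 and 1094 CPM and then 835.5 and 772.1 CPM (adjusted p = 0.245). Of 15 genes of the ATF4 and unfolded protein response 2 fell and 0 rose. Psat1, of serine synthesis, fell from 507.6 and 306.4 to 110.5 and 108 CPM (-1.90 ± 0.27, adjusted p = 0.00583), and Asns, asparagine synthetase, from 785.2 and 392 to 239.6 and 226.8 CPM (-1.34, adjusted p = 0.0266).

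Among 13 genes of the BCL2 family and caspases 2 rose: Casp8, the initiator caspase of death receptors, from 0.743 and 0.847 to 2.56 and 4.032 CPM (2.05, adjusted p = 0.0276), and Bcl2l11, which encodes the pro-apoptotic BIM, from 27.83 and 23.39 to 52.84 and 49.84 CPM (adjusted p = 0.0331). None of 15 p53 targets was called, and Cdkn1a, the cell cycle inhibitor p21, had 47.69 and 95.8 CPM and then 119.7 and 110.4 CPM (adjusted p = 0.22). The lists of cholesterol synthesis (19 genes), DNA methylation (10 genes) and growth arrest (10 genes) also had no called member. Of 13 mitochondrially encoded genes 4 fell; mt-Cytb had 2655 and 2610 CPM and then 1225 and 1252 CPM (-1.09, adjusted p = 0.0189, and 0.0659 with the length and GC correction), and the list summed to 27220 and 64230 CPM at day 0 and 18410 and 20050 CPM at day 4, with day 0 replicate 2 far above the rest. The number of these genes that fell was 9 with DESeq2, 2 with the length and GC correction, 5 without day 0 replicate 1, 1 without day 0 replicate 2 and 0 without either day 4 library.

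Other signalling pathways had 1 or 2 called members each. The shares over all tested genes were 3.57% called higher and 3.46% called lower. With these shares, 1 or 2 calls in a short list, here and in the next paragraph, say little about the list. Of 16 Wnt target genes 2 rose. Dkk1, a secreted Wnt antagonist, went from 0.313 and 0.269 to 4.36 and 5.627 CPM (4.09 ± 0.59, adjusted p = 0.00583), a rise smaller than that in wild type by 4.56 (adjusted p = 0.0336). Lgr5, the R-spondin receptor, had 0 counts at day 0 and 0.149 and 0.238 CPM at day 4, at least 6.34-fold higher (adjusted p = 0.045). Of 14 FGF and ERK targets 1 rose and 1 fell. Etv4, an ETS factor downstream of FGF, fell from 75.09 and 34.34 to 8.422 and 8.963 CPM (-2.65 ± 0.40, adjusted p = 0.00726), while the ERK phosphatase Dusp5 rose from 9.699 and 4.979 to 30.63 and 27.86 CPM (1.99, adjusted p = 0.0161), by 2.42 more than in wild type (adjusted p = 0.0324). All 14 members of this list were lower in day 0 replicate 2 than in replicate 1, 8 of them at less than 50% of it. Cyp26a1, which degrades retinoic acid, rose from 1.134 and 0.516 to 7.431 and 6.562 CPM (3.08, adjusted p = 0.02) as the called member of 10 retinoid genes, by 4.23 less than in wild type (adjusted p = 0.0296). Cdx4, a posterior homeobox gene, had 0.469 and 0.537 CPM at day 0 and 0 counts at day 4, at least 19.3-fold lower (adjusted p = 0.0286), and was the called member of 11 Hox and Cdx genes.

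Of 16 genes of the epithelial-mesenchymal transition 1 fell, Vim, the intermediate filament vimentin, which went from 126.6 and 40.62 to 27.43 and 27.7 CPM (-1.60, adjusted p = 0.0457, and 0.29 without day 0 replicate 1). In a list of 10 fibroblast genes, kept as markers of feeder or stromal cells, 2 rose: the collagen VI chains Col6a1, from 0.958 and 0.806 to 18.41 and 16.18 CPM (4.29 ± 0.50, adjusted p = 0.00273), and Col6a2, from 1.408 and 0.516 to 8.571 and 6.635 CPM (2.98, adjusted p = 0.02). That list summed to 37.3 and 33.8 CPM at day 0 and 82.6 and 72.5 CPM at day 4. Of 17 germ cell genes 2 fell: Mael, a piRNA-pathway gene, from 74.89 and 53.69 to 21.67 and 20.66 CPM (-1.60 ± 0.25, adjusted p = 0.00731), and Stk31, from 63.71 and 43.9 to 20.16 and 16.24 CPM (-1.56, adjusted p = 0.0187).

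The 12 largest rises by rule, among called genes averaging 5 CPM or more at day 4, were a mixed group. Besides Ttr, Col6a1, Adm and Ctsj they included Zfp469, a zinc-finger gene that had 0.450 and 0.145 CPM at day 0 and 8.802 and 6.635 CPM at day 4 (4.68 ± 0.57, adjusted p = 0.00306). Mogat2, of triglyceride synthesis, rose from 0.293 and 0.537 to 9.925 and 8.688 CPM (4.48, adjusted p = 0.00527), and Mcoln3, an endolysosomal channel, from 0.254 and 0.454 to 8.455 and 6.507 CPM (4.39, adjusted p = 0.00378). Flt1, a VEGF receptor of endothelium and trophoblast, rose from 1.799 and 2.748 to 22.18 and 26.96 CPM (3.43 ± 0.37, adjusted p = 0.00223). The immunoglobulin-superfamily gene Prtg rose from 19.73 and 17.99 to 212.5 and 232.6 CPM (3.56 ± 0.41, adjusted p = 0.00273), with close replicates on both days. Aqp8, a water channel, rose from 0.352 and 0.227 to 8.042 and 5.48 CPM (4.53, adjusted p = 0.0143), and Wnt4 from 0.978 and 1.136 to 11.51 and 17.67 CPM (3.78, adjusted p = 0.0167). Ramp2, the accessory protein of the adrenomedullin receptor, differed from these: it had 1.193 and 1.281 CPM and then 1.767 and 29.99 CPM (3.68 ± 0.99, adjusted p = 0.0484), so that day 4 replicate 2 carried its rise, and without that library the log2 change was 0.47 (adjusted p = 0.786).

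The 12 largest drops by the same rule, with the mean taken at day 0, were led by Fgf17 (above) and Stmn2. Stmn2, a microtubule regulator best known from neurons (chromosome 3, 8509360 to 8561606, plus strand), had 292.5 and 214.1 CPM at day 0 and 16.4 and 15.52 CPM at day 4 (-3.99 ± 0.23, adjusted p = 3.48e-05). Xaf1, an interferon-inducible antagonist of XIAP, went from 28.53 and 30.87 to 2.196 and 2.951 CPM (-3.53 ± 0.35, adjusted p = 0.00207), and Slc13a5, a citrate transporter, from 20.26 and 13.55 to 1.42 and 1.375 CPM (-3.59 ± 0.33, adjusted p = 0.00159). Nmnat2, an NAD synthesis enzyme, had 59.78 and 106.5 CPM and then 11.2 and 6.305 CPM (-3.25 ± 0.35, adjusted p = 0.00223). Pianp fell from 9.034 and 5.372 to 0.660 and 0.385 CPM (-3.77, adjusted p = 0.00248), by 2.08 more than in wild type (adjusted p = 0.0459). The lipocalin Apod (-3.22, adjusted p = 0.0109), Catip (-3.46, adjusted p = 0.00282), the non-coding RNA Platr28 (-3.41, adjusted p = 0.00846) and the fusogenic micropeptide gene Mymx (-3.55, adjusted p = 0.0204) also fell. Zmat4 had 17.34 and 1.508 CPM at day 0 and 0.710 and 0.605 CPM at day 4 (-3.84, adjusted p = 0.032, and 0.300 without day 0 replicate 1). Krt42, a keratin gene, fell from 12.01 and 6.425 to 1.321 and 0.605 CPM (-3.25, adjusted p = 0.0174), by 3.54 less than in wild type (adjusted p = 0.0443).

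Set beside the other genotypes, the double knockout had fewer genes called between the days than wild type. In the same fit wild type had 8157 genes called between the days (43.6%) and the Smad4 knockout 1663 (8.9%). The wild type day 0 libraries had 13.8% and 10.1% of their counts on ribosomal protein genes, against 4.72% to 7.30% in the other libraries. The part of this library difference in the wild type calls was not tested. The median absolute log2 change was 0.49 in the double knockout, 0.95 in wild type and 0.49 in the Smad4 knockout, with median SEs of 0.37, 0.38 and 0.37. Of the 1315 calls 938 were also called in the same direction in wild type, which is 71.3% of the calls in the double knockout and 11.5% of those in wild type, and 19 were called in opposite directions. With the Smad4 knockout the shared calls numbered 618, which is 47% and 37.2% of the 2 lists, with 6 in opposite directions. The 3 day effects share no library.

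The difference between the day effects of the double knockout and wild type was called for 1140 genes (6.1%), 343 with a higher change in the double knockout (1.83%) and 797 with a lower one (4.26%). This count depended on single libraries of both genotypes: it was 28 without wild type day 0 replicate 1, 137 without replicate 2, 86 without wild type day 4 replicate 1, 3887 without its replicate 2, and 453, 725, 38 and 32 without the double knockout libraries in turn. With the length and GC correction 59.4% of the 1140 genes were still called in the same direction, and 99.5% kept their sign. The negative differences named by rule were those of Foxa2 (adjusted p = 0.00664), Nostrin (adjusted p = 0.015), Mixl1, T, Cubn and Chml (-6.43, adjusted p = 0.00206). Foxa2 and Nostrin had 0 counts in wild type at day 0, so their fitted values depend on the prior count; taking 3 counts in that group as the floor, the difference was -7.48 or further from 0 for Foxa2 and -6.76 or further from 0 for Nostrin. Nostrin, a regulator of nitric oxide synthase, had 1.721 and 3.058 CPM and then 5.516 and 3.886 CPM in the double knockout. For Chml, a Rab escort gene, the double knockout had 25.68 and 19.96 CPM and then 29.34 and 30.43 CPM, while wild type went from 0.192 and 0.368 to 40.82 and 23.39 CPM, so that wild type day 0 was the low group.

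The positive differences named by the same rule were those of Rarres2, Dnajc5g, Lefty1, Calml4, Sgk2 and S100a6. Rarres2, which encodes the chemoattractant chemerin, had 0.254 and 1.157 CPM and then 5.549 and 2.658 CPM in the double knockout, and 11.67 and 1.124 CPM and then 0.0553 and 0.0575 CPM in wild type (difference 9.30 ± 1.52, adjusted p = 0.0145). The kinase gene Sgk2 had 7.157 and 6.714 CPM and then 11.94 and 14.77 CPM (4.58, adjusted p = 0.00837), and the calcium-binding gene S100a6 had 20.51 and 38.72 CPM and then 54.71 and 68.04 CPM (4.31, adjusted p = 0.0164). Neither was called between the days within the double knockout. Calml4, a calmodulin-like gene, had 13.47 and 19.69 CPM and then 5.202 and 6.342 CPM (4.72, adjusted p = 0.0104), and Dnajc5g 13.49 and 14.19 CPM and then 7.563 and 6.452 CPM (4.93, adjusted p = 0.034) in the double knockout. In wild type the log2 changes of the pair were -6.25 and -5.92.

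Against the Smad4 knockout 1 gene was called for a difference in the day effect (0.00535%), with 1392 genes at an unadjusted p below 0.05 and 246 called by DESeq2. That gene, the unnamed model Gm47381, had 5.827 and 6.818 CPM and then 4.574 and 4.967 CPM in the double knockout, and 0 counts in both Smad4 knockout day 4 libraries (a difference of at least 6.89 with 3 counts there as the floor, adjusted p = 0.00173). It lies outside the naming rule and was named because it was the single call. So few calls do not show that the 2 knockouts changed alike.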

How the data were processed

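Libraries made from total RNA of 12 samples with the TruSeq RNA kit v2, per the labels' protocols, were analysed. The authors deposited whole-number counts per Ensembl gene and a table of FPKM values; per the submitters' processing notes Cufflinks, StringTie and DESeq2 were used with mm10, and the aligner, strand setting and filters are not given in the sources used here. Counts were fitted with edgeR 4.0.16 (TMM, filterByExpr, quasi-likelihood, 1 coefficient for each of the 6 groups, Benjamini-Hochberg adjustment over 18693 genes, R 4.3.3). Alternatives used limma 3.58.1 on log2(FPKM + 1), DESeq2 1.42.0, other filters and scalings, a length and GC correction (GENCODE M21) and each library left out; the fit was tested on simulated data. Named were the 12 largest rises and drops with at least 5 CPM, the 6 largest differences from wild type each way, up to 5 called and 2 missed members of each list, and further genes chosen after their values were seen; a few results are not reported here. The members and lists were chosen with earlier results of these data known. Promoters came from RefSeq. Antisense and near-identical genes may share reads.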

Additional observations from a re-analysis of the deposited data

Results flagged for a closer look

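The day effects of 2 genotypes were compared by an interaction contrast in the edgeR fit, and 39 genes named in the text differed between the double knockout and wild type. Each is given with the log2 difference of the day effects, double knockout minus wild type, and its adjusted p. The positive differences were those of Rarres2 (9.30, 0.0145), Dnajc5g (4.93, 0.034), Lefty1 (4.78, 0.0436), Calml4 (4.72, 0.0104), Sgk2 (4.58, 0.00837), S100a6 (4.31, 0.0164), Krt42 (3.54, 0.0443), Plac8 (2.98, 0.0364), Gata2 (2.93, 0.025), Bmp8b (2.83, 0.0202), Col6a1 (2.61, 0.0412), Dusp5 (2.42, 0.0324), Syna (2.40, 0.0337), Tfap2c (1.96, 0.0166) and Vegfa (1.47, 0.042). The larger negative differences were those of Foxa2 (-11.29, 0.00664), Nostrin (-10.53, 0.015), Mixl1 (-8.19, 0.011), T (-7.27, 0.0311), Cubn (-6.47, 0.00664), Chml (-6.43, 0.00206), Eomes (-5.79, 9.02e-05), Apob (-5.62, 0.0199), Dkk1 (-4.56, 0.0336), Gata6 (-4.51, 0.0145), Pdgfra (-4.37, 0.00699) and Dab2 (-4.36, 0.0127). Smaller negative differences were found for Cyp26a1 (-4.23, 0.0296), Bmp2 (-3.87, 0.0463), Gata4 (-3.79, 0.00508), Tgfbr3 (-3.61, 0.011), Sox7 (-3.27, 0.0229), Fst (-3.24, 0.0452), Dnmt3b (-2.73, 0.0423), Grb10 (-2.21, 0.0238), Skil (-2.20, 0.0205), Pianp (-2.08, 0.0459), mt-Cytb (-1.39, 0.033) and Nanog (-1.32, 0.0463). Against the Smad4 knockout the difference was called for Gm47381 (10.69, 0.00173). Foxa2 and Nostrin in wild type at day 0, and Gm47381 in the Smad4 knockout at day 4, had 0 counts, so these 3 fitted values depend on the prior count; with 3 counts in that group as the floor they were -7.48, -6.76 and 6.89. The check for a sample far from the others of its group needs 4 samples and was not made.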

How the results depend on the processing

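The number of genes called between the days, 1315, was 3010 with a length and GC correction, 2825 with that correction and the replicate block together, 2695 with DESeq2, 1944 without a filter, 930 when the double knockout libraries were fitted alone and 38 to 1208 when 1 library was left out. The replicate block alone gave 1293 calls. Same-numbered double knockout libraries deviated together with r = 0.10 across genes, where pairs of groups in the series ranged from -0.22 to 0.49. With 2 libraries per group this value cannot decide whether same-numbered libraries were paired. Of the genes that limma called on log2(FPKM + 1), 59.5% were higher. That share of the calls was 62% without a filter and 57.2% with a pseudocount of 0.1, against 50.8% here. For the difference from wild type the 1140 calls became 2549 without a filter, 3227 with DESeq2, 1854 with limma on log2(FPKM + 1) and 28 to 3887 with 1 library left out; 43.4% were higher with the length and GC correction, 43.2% with the block added, 44.5% with DESeq2 and 30.1% here. For the difference from the Smad4 knockout the 1 call became 3 with a minimum of 1 CPM, with RLE size factors or without mitochondrially encoded genes (an alternative chosen after seeing the data), 139 without a filter, 44 with the length and GC correction, 25 with the block added, 246 with DESeq2, 53, 11 and 151 with limma (pseudocounts 1 and 0.1, and no filter) and 1 to 56 with 1 library left out. The cause of these shifts was not tested.

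None of the 106 called genes named in the report changed sign in any alternative run. With a library left out this was fixed in advance, because the 2 groups of every called gene did not overlap. The 17 estimates that changed sign belong to genes that missed the call. Of those 106, 32 were not called when the double knockout libraries were fitted alone, and 6 were not called with the replicate block. With 1 double knockout library left out, the log2 change ranged from -1.90 to 0.52 for Klf2, from -0.57 to 0.45 for Dnmt3b, from -0.03 to 0.31 for Smad2, from -0.02 to 0.13 for Skil, from -0.11 to 0.34 for Eomes, from -3.68 to 7.78 for Ddx3y and from -1.08 to 3.32 for Lefty2. Of these, Ddx3y, Lefty2 and Skil were negative without day 4 replicate 1, Klf2 and Dnmt3b positive and Smad2 negative without day 0 replicate 1, and Eomes negative without day 0 replicate 2 (-0.11) or day 4 replicate 1 (-0.05). Under the correction for length and GC content, alone and with the block, it was -0.04 and -0.05 for Skil and -0.07 and -0.06 for Eomes, and the day effect of Gm47381 in the double knockout was 0.01 in both. In the limma fits Dnmt3b was at 0.06. Genes named at under 1 CPM on both days rest on few counts.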
